A study of Mus musculus with 17 samples.

Results

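Levels of 9 Alzheimer's disease risk genes of lipid transport and endocytosis, Apoe, Clu, Abca1, Abca7, Lrp1, Sort1, Sorl1, Bin1 and Picalm, were followed in bulk RNA-seq of mouse prefrontal cortex. They were taken by symbol from the 56953 genes of the count table, and each symbol occurred once. Libraries came from 8-month-old mice on the B6C3F1/J background in 3 genotypes: 5 wild-type (WT) libraries, 6 PS19 libraries (labelled hTau) and 6 CgA-KO/PS19 libraries (labelled CgA-KO/hTau). PS19 mice carry a transgene for the 1N4R form of human Tau with the P301S mutation, driven by the Prnp promoter and inserted on chromosome 3, and were heterozygous when crossed. CgA-KO/PS19 mice carry the same transgene together with a congenital, whole-body knockout of Chga, which encodes chromogranin A (CgA), made on a mixed background and backcrossed first to C57BL/6 J and then to B6C3F1/J. No CgA-KO library without the transgene was analysed here, so the effect of losing CgA could be read on the PS19 background alone. Per the paper, both sexes were sequenced in each genotype and replicates were biological. The groups held 3 males and 2 or 3 females each, but the labels give neither sex nor litter for a library.

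In the brain, apolipoprotein E (Apoe) and clusterin (Clu) are secreted largely by astrocytes and carry cholesterol and phospholipid between cells, after the transporters Abca1 and Abca7 have moved lipid across the membrane. Lrp1 is a large receptor of the LDL receptor family that takes up apolipoprotein E and many other ligands, including Tau. Sort1 (sortilin) and Sorl1 (SORLA) are VPS10-domain receptors that steer cargo between the Golgi, the endosome and the cell surface, and Bin1 and Picalm shape and coat the membrane during clathrin-mediated uptake. Common variants at or near most of these genes shift the risk of late-onset Alzheimer's disease in people, APOE most of all.

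Positions are from the GENCODE M21 annotation of GRCm38, matched by Ensembl gene ID without its version. Apoe lies at chr7:19696109-19699188 on the minus strand and Clu at chr14:65968483-65981547 on the plus strand. Abca1 is at chr4:53030787-53159895 (minus) and Abca7 at chr10:79996494-80015572 (plus). Lrp1 is at chr10:127538161-127621148 (minus), Sort1 at chr3:108284082-108361511 (plus) and Sorl1 at chr9:41964720-42124297 (minus). Picalm is at chr7:90130213-90213465 (plus). Sort1 shares chromosome 3 with the transgene insertion, and no member lies on chromosome 12, which carries Chga. Annotated genes overlapped 5 of the members, Lrp1, Sort1, Bin1, Picalm and Sorl1. The most abundant of these neighbours was A830052D11Rik, opposite Bin1, with a mean level that was 0.648% of the level of Bin1.

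RefSeq promoters (GRCm38.p6) were at hand for 6 of the 9 members, Abca1, Abca7, Apoe, Lrp1, Picalm and Sorl1. The 250 bases before the annotated start are shown for Lrp1 and Sorl1, the members that passed the test between genotypes, and for Apoe, which differed between CgA-KO/PS19 libraries. Sorl1 and Apoe have further annotated starts, and for these genes the most upstream start is used. Capitals mark the GC box GGGCGG or its reverse complement CCGCCC, to which factors of the Sp family bind, and the E-box CACGTG, to which basic helix-loop-helix factors bind. Each sequence runs 5′ to 3′ on the minus strand, at chr10:127621149-127621398 for Lrp1, chr9:42124298-42124547 for Sorl1 and chr7:19699189-19699438 for Apoe.
Lrp1: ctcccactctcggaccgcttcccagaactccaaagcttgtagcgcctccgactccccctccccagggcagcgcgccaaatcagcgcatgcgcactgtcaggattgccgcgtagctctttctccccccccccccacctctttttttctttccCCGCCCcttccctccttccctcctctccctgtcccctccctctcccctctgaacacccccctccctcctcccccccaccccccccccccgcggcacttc
Sorl1: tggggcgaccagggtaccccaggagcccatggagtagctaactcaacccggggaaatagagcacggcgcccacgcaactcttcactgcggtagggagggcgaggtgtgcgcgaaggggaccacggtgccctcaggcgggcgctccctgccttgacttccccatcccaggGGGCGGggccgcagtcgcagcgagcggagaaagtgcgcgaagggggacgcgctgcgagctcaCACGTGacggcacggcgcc
Apoe: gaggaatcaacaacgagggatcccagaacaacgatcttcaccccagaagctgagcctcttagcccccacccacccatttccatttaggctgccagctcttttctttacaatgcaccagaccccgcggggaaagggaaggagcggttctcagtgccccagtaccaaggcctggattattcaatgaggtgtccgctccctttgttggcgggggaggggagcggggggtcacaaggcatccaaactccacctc
The Lrp1 stretch held 1 GC box and no E-box, the Sorl1 stretch held 1 of each, and the Apoe stretch held neither. Of all 32851 RefSeq promoter stretches of this length, 32.7% held a GC box and 6.02% held the E-box, with both strands searched. The cAMP response element TGACGTCA (1.55% of promoters) and the AP-1 element TGANTCA (6.75%), searched in the same way on both strands, were in none of the 3. The stretches before the further starts, at 42077213 for Sorl1 and at 19698621 and 19698398 for Apoe, held none of these motifs, GC box and E-box included. GC content was 67.2% for Lrp1, 69.6% for Sorl1 and 57.2% for Apoe. A match to a motif here is a description of letters and says nothing of a bound factor.

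The genotype checks followed the labels. Chga was 162.5 ± 11.9 counts-per-million units (CPM; SD, n = 5) in WT and 168.0 ± 6.68 (n = 6) in PS19, and had no count in any CgA-KO/PS19 library. Prnp, whose promoter drives the transgene, was 833 ± 71.0 CPM in WT, 2119 ± 174 CPM in PS19 and, with CgA lost, 1561 ± 321 CPM. Total counts per library ran from 8838334 (WT replicate 4) to 227651681 (PS19 replicate 6), and the lowest count of any member in any library was 55. All 9 members passed the filter on low counts in every comparison. Counting error was not estimated for each member. It weighs most on Abca7, which had the fewest counts of the members in every library, and most of all in the shallow WT replicate 4.

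Some libraries stood apart from others of their genotype. In every genotype, replicates 1 to 3 had over 1 CPM of the Y-chromosome gene Ddx3y and the other replicates did not. CgA-KO/PS19 replicates 1 to 3 were higher than replicates 4 to 6 in 11 of 12 astrocyte, 10 of 12 oligodendrocyte and 7 of 12 microglia markers, without overlap. They were lower in 9 of 12 neuron markers and higher in 1. Of all genes tested, 35.1% did not overlap between these sets, in either direction. Markers of the striatum, a region below the cortex, were higher for 14 of 14, blood for 5 of 5 and endothelial for 4 of 10. Cortical projection neuron markers were lower for 5 of 10 and meninges and fibroblast for 7 of 10. Choroid plexus had 3 higher and 2 lower of 12. Striatum markers summed to 1265 to 3906 CPM in WT and 302 to 349 CPM in PS19. In CgA-KO/PS19 their sum was 615 to 2430 CPM in replicates 1 to 3 and 293 to 316 CPM in replicates 4 to 6. The cortical projection neuron markers, which define the labelled tissue, were present in all libraries, but unevenly. They summed to 1182 to 2796 CPM in WT and 2204 to 2402 CPM in PS19. In CgA-KO/PS19 these cortical markers summed to 1257 to 1689 CPM in replicates 1 to 3 and 2058 to 2148 CPM in replicates 4 to 6. PS19 replicates 4 to 6 were close to one another, as were CgA-KO/PS19 replicates 1 and 3. For these 4 pairs the median squared count difference was 5.77 to 8.32 times what Poisson sampling of the deposited counts gives. For the other 36 pairs within a genotype it was 14.3 to 93.6 times. A low deposited count is not a number of fragments, so this ratio cannot tell repeat libraries of 1 sample from separate samples. They were kept as separate libraries, as labelled, and averaged only as an alternative. In bulk samples, fewer cells of a type and less RNA per cell cannot be told apart.

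The 2 comparisons with PS19 ask what the Tau transgene changes and what losing CgA changes on top of it. They share the 6 PS19 libraries. Lrp1 and Sorl1, both endocytic or sorting receptors, were lower in WT than in PS19 and lower in CgA-KO/PS19 than in PS19. By edgeR with all libraries, Apoe, Clu, Abca1 and Abca7, the lipid carriers and transporters, passed in neither comparison. Sort1, Bin1 and Picalm did not pass either.

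In numbers, 2 of 9 members had an adjusted p under 0.05 in WT against PS19 (edgeR's quasi-likelihood test, Benjamini-Hochberg over 23062 genes), both lower in WT, beside 5.9% of all genes called and 1.95% called lower in WT. In CgA-KO/PS19 against PS19, 2 of 9 passed, both lower in CgA-KO/PS19, beside 9.72% of all genes called and 4.22% called lower. The median log2 fold change of the members was -0.18 for WT over PS19, against -0.01 for all genes tested, and -0.26 for CgA-KO/PS19 over PS19, against 0.03. At the threshold in the study's Methods, a log2 change over 0.5 with an unadjusted p under 0.01, only Sorl1 passed, in both comparisons, beside 7.39% of genes in WT against PS19 and 9.73% in CgA-KO/PS19 against PS19. The libraries of WT and PS19 did not overlap for 2 members, Lrp1 and Sorl1, beside 9.52% of all genes, and for 1 member, Bin1, the CgA-KO/PS19 and PS19 libraries had no overlap, beside 6.63%.

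**Figure D1:**
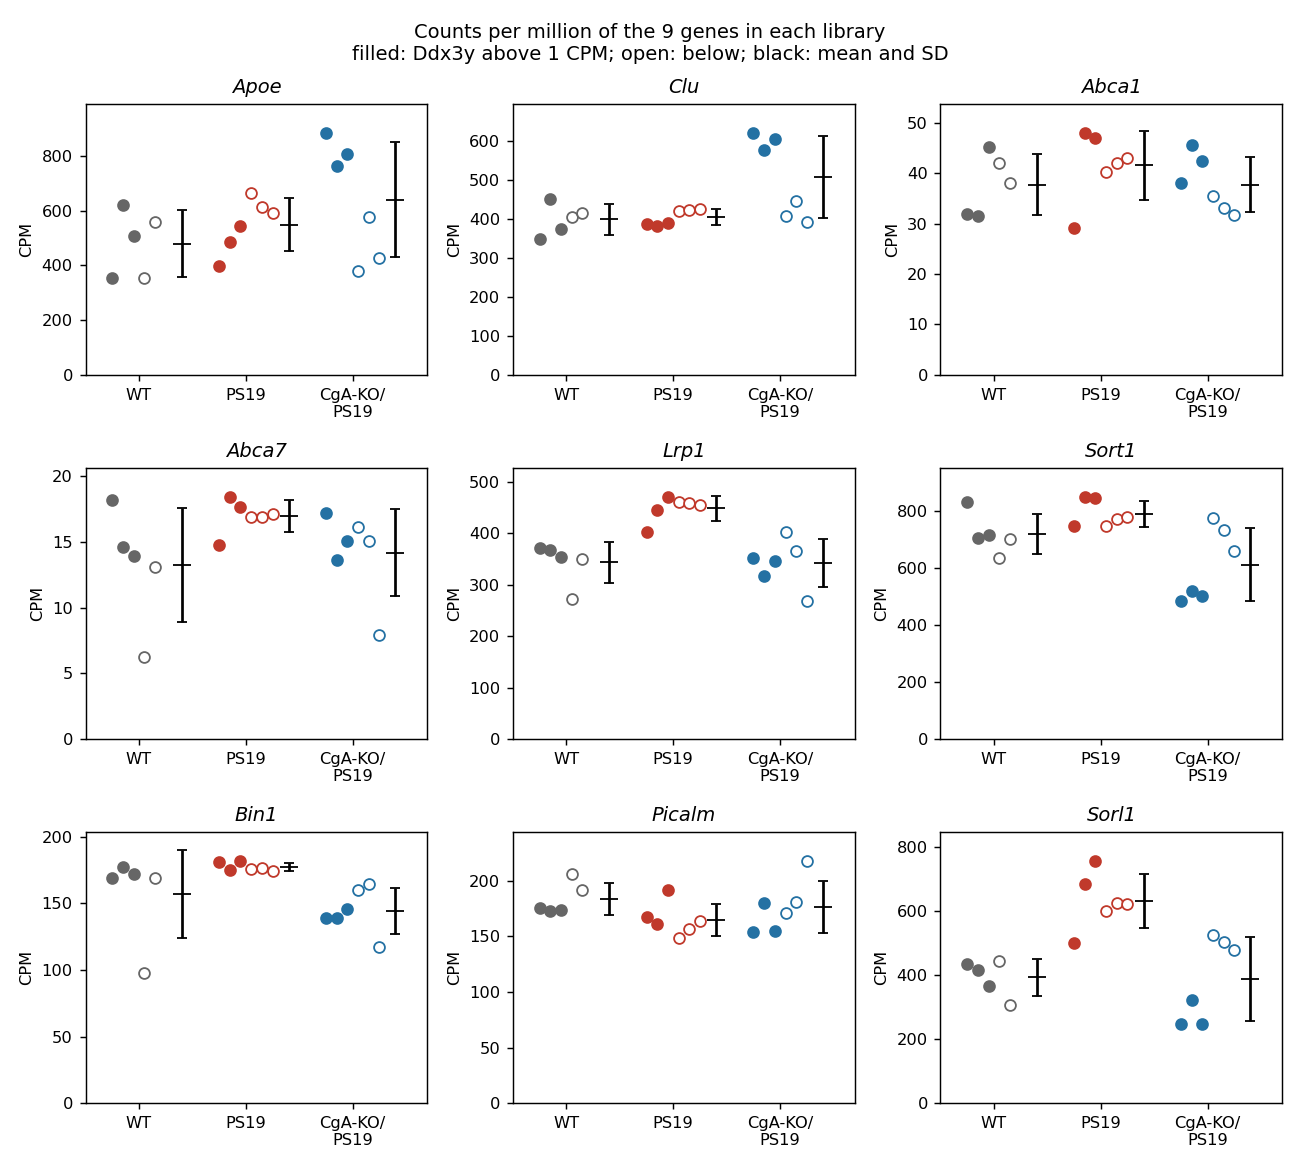
CPM (linear axes from 0) of each of the 9 genes, 1 point per library, for WT (n = 5), PS19 (n = 6) and CgA-KO/PS19 (n = 6). Filled points are libraries with Ddx3y above 1 CPM, open points are the others, and the black bars are the mean and SD. Every PS19 point of Sorl1 lies above every WT point, and the filled CgA-KO/PS19 points stand apart for Apoe, Clu, Sort1 and Sorl1.

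Among the receptors, Sorl1 showed the largest difference. SORLA binds the amyloid precursor protein and returns it from the endosome through the retromer. Sorl1 was at 434, 414, 365, 443 and 306 CPM in the WT libraries. In PS19 the lowest library was at 499, the median at 623 and the highest at 754 CPM. In CgA-KO/PS19 it was at 247, 323 and 248 CPM in replicates 1 to 3 and at 524, 504 and 479 CPM in replicates 4 to 6. All 5 WT libraries were below every PS19 library, and so were 4 of 6 CgA-KO/PS19 libraries. Sorl1 was 1.61-fold lower in WT than in PS19 (log2 fold change -0.68, SE 0.20, 95% interval -1.10 to -0.27, edgeR adjusted p = 0.0469). It was 1.63-fold lower in CgA-KO/PS19 than in PS19 (log2 fold change -0.70, SE 0.19, 95% interval -1.09 to -0.31, edgeR adjusted p = 0.0261). Both calls were narrow. Leaving out any WT library, or any PS19 library but replicate 1, ended the first, with edgeR adjusted p between 0.0575 and 0.143. The second ended without PS19 replicate 2 or 3 or CgA-KO/PS19 replicate 1, 2 or 3, with a highest edgeR adjusted p of 0.0664. The striatum marker score did not overlap between WT (0.729 to 2.63) and PS19 (-1.42 to -1.27). With that score as a covariate the log2 fold change of Sorl1 for WT over PS19 was 0.19 (edgeR adjusted p = 0.448). Because score and genotype are confounded in WT against PS19, no value with this covariate can separate them there, for any member. For CgA-KO/PS19 over PS19 the same covariate gave -0.39 for Sorl1 (edgeR adjusted p = 0.0429).

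Lrp1, the endocytic receptor for apolipoprotein E, was lower by a smaller margin. It was at 372, 368, 354, 273 and 351 CPM in WT. The PS19 libraries ran from 402 through a median of 457 to 471 CPM. In CgA-KO/PS19 they were at 352, 318, 347, 403, 366 and 268 CPM. All WT libraries and 5 of 6 CgA-KO/PS19 libraries were below the lowest PS19 library, and the remaining one, replicate 4, was level with it. The lowest Lrp1 library of each genotype was also its shallowest: WT replicate 4, PS19 replicate 1 and CgA-KO/PS19 replicate 6. WT replicate 1, the next shallowest WT library, was the highest WT library for Lrp1. PS19 libraries had the highest median total count, 153213148, beside 62694363 for the WT libraries and 56950953 for the CgA-KO/PS19 libraries. The part of depth in the level of Lrp1 was not tested. Lrp1 was 1.31-fold lower in WT than in PS19 (log2 fold change -0.39, SE 0.11, 95% interval -0.61 to -0.16, edgeR adjusted p = 0.0372) and 1.31-fold lower in CgA-KO/PS19 than in PS19 (log2 fold change -0.39, SE 0.10, 95% interval -0.60 to -0.18, edgeR adjusted p = 0.023). The call in WT was lost on leaving out WT replicate 3, 4 or 5 or any of PS19 replicates 2 to 6, with a highest edgeR adjusted p of 0.0835. In CgA-KO/PS19 it was lost only without CgA-KO/PS19 replicate 2 (edgeR adjusted p = 0.0572). With the near-identical libraries averaged, neither Lrp1 nor Sorl1 passed in either comparison (edgeR adjusted p between 0.101 and 0.164), and the direction of each was as before. With the striatum covariate Lrp1 had a log2 fold change of -0.45 for WT over PS19 (edgeR adjusted p = 0.0646) and -0.42 for CgA-KO/PS19 over PS19 (edgeR adjusted p = 0.0364).

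Sort1, which binds progranulin and the precursor of nerve growth factor, did not pass edgeR's test with all libraries. It was at 831, 706, 715, 635 and 701 CPM in WT, and from 746 through a median of 774 to 848 CPM in PS19. In CgA-KO/PS19 it was at 484, 519 and 500 CPM in replicates 1 to 3, below every other library of the series, and at 773, 734 and 658 CPM in replicates 4 to 6. The log2 fold change for CgA-KO/PS19 over PS19 was -0.37 (SE 0.12, 95% interval -0.62 to -0.12, edgeR adjusted p = 0.0579), and for WT over PS19 it was -0.14 (95% interval -0.40 to 0.13, edgeR adjusted p = 0.576). DESeq2 called Sort1 for CgA-KO/PS19 over PS19 (-0.35, DESeq2 adjusted p = 0.0224), beside 3970 genes called in all. So did limma voom with quality weights (-0.44, limma adjusted p = 0.00491), beside 5229 genes.

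The 2 secreted lipid carriers did not pass the test between WT and PS19 with all libraries. Apoe was at 355, 622, 508, 353 and 561 CPM in WT, and from 397 through a median of 567 to 664 CPM in PS19, so the ranges overlapped. In CgA-KO/PS19 it was at 885, 763 and 808 CPM in replicates 1 to 3, above every other library, and at 378, 579 and 428 CPM in replicates 4 to 6. With all 6 libraries the log2 fold change over PS19 was 0.22 (SE 0.21, 95% interval -0.22 to 0.66, edgeR adjusted p = 0.521). The corresponding value for WT over PS19 was -0.20 (95% interval -0.66 to 0.27, edgeR adjusted p = 0.661). With the striatum covariate, which is confounded with genotype here, it was -0.98 and passed (edgeR adjusted p = 0.0204).

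Clu followed the same split among the libraries. It was at 349, 451, 375, 404 and 414 CPM in WT and ran from 382 through a median of 406 to 424 CPM in PS19, the narrower range lying within the wider. In CgA-KO/PS19 replicates 1 to 3 it was at 621, 576 and 604 CPM, and in replicates 4 to 6 at 406, 445 and 391 CPM. The log2 fold change over PS19 was 0.32 (SE 0.12, 95% interval 0.08 to 0.57, edgeR adjusted p = 0.0851), and that of WT over PS19 was -0.02 (95% interval -0.28 to 0.24, edgeR adjusted p = 0.95), or -0.42 with the striatum covariate (edgeR adjusted p = 0.0537).

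The lipid transporters were the least abundant members. Abca1, which loads cholesterol onto apolipoprotein E, spanned 31.6 to 45.1 CPM over the WT libraries, 29.1 to 48.0 CPM over PS19 and 31.8 to 45.6 CPM over CgA-KO/PS19. The 3 ranges covered each other almost fully. Its log2 fold change was -0.14 both for WT over PS19 (95% interval -0.43 to 0.15) and for CgA-KO/PS19 over PS19 (95% interval -0.42 to 0.13), with edgeR adjusted p of 0.602 and 0.514. Abca7, a close relative that also affects phagocytosis, spanned 6.27 to 18.1 CPM over WT, 14.8 to 18.4 CPM over PS19 and 7.91 to 17.2 CPM over CgA-KO/PS19. The lowest values in WT and CgA-KO/PS19 each came from the library with the fewest counts of its genotype, replicate 4 and replicate 6. The log2 fold change of Abca7 was -0.35 for WT over PS19 (95% interval -0.78 to 0.09, edgeR adjusted p = 0.359) and -0.26 for CgA-KO/PS19 over PS19 (95% interval -0.67 to 0.15, edgeR adjusted p = 0.407).

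The 2 genes of membrane curvature and coat assembly pointed in opposite directions, neither past edgeR's test with all libraries and no covariate. Bin1, which encodes the membrane-bending amphiphysin 2, lies at chr18:32377230-32435737 on the plus strand. It was at 169, 177, 172, 98.0 and 169 CPM in WT and between 174 and 182 CPM in PS19. Its spread in PS19 was the narrowest of any member in any genotype, with a coefficient of variation of 1.75%. CgA-KO/PS19 libraries, at 117 to 164 CPM with a median of 142, all lay below PS19. The log2 fold change of Bin1 for CgA-KO/PS19 over PS19 was -0.30 (SE 0.12, 95% interval -0.55 to -0.05, edgeR adjusted p = 0.117), and for WT over PS19 it was -0.18 (95% interval -0.44 to 0.09, edgeR adjusted p = 0.462). Picalm, a clathrin assembly protein, lay between 173 and 206 CPM for WT, 148 and 191 CPM for PS19 and 154 and 217 CPM for CgA-KO/PS19, with overlap throughout. Its log2 fold change was 0.16 for WT over PS19 (95% interval -0.05 to 0.36, edgeR adjusted p = 0.377) and 0.10 for CgA-KO/PS19 over PS19 (95% interval -0.10 to 0.30, edgeR adjusted p = 0.519). With the striatum covariate, which is confounded with genotype in WT against PS19, the first was 0.40 and passed (edgeR adjusted p = 0.0465).

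**Figure D2:**
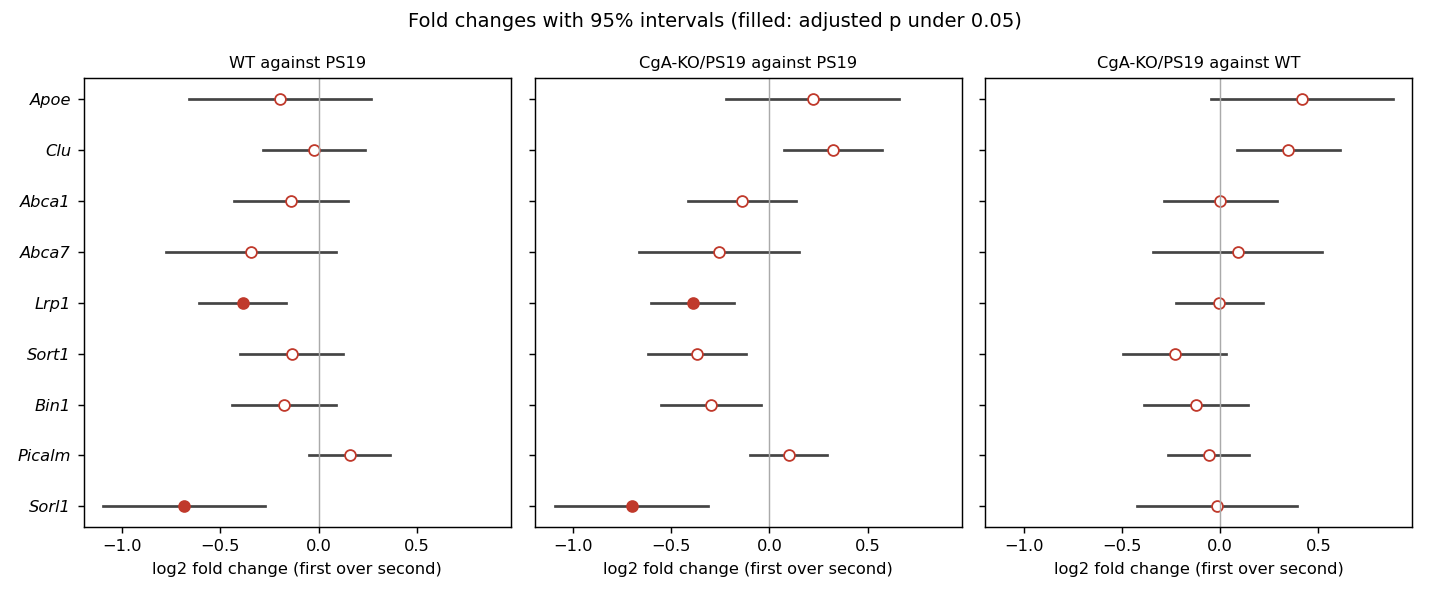
Log2 fold change (horizontal axis, first genotype over second) of the 9 genes in each of the 3 comparisons, with 95% intervals as lines. Filled points have an edgeR adjusted p under 0.05: Lrp1 and Sorl1 in both comparisons with PS19, and no gene in CgA-KO/PS19 against WT.

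CgA-KO/PS19 was also set against WT, a contrast that joins both alleles. By edgeR, 0 of 9 members had an adjusted p under 0.05, beside 6.46% of all genes, and 1, Clu, had an unadjusted p under 0.05. DESeq2 called 0 and limma voom with quality weights called 1, again Clu. At the threshold of the study's Methods 0 members passed, beside 7.75% of genes, and for 0 members did the libraries not overlap, beside 3.6%. Lrp1 had a log2 fold change of 0.00 (95% interval -0.23 to 0.22) and Sorl1 of -0.02 (95% interval -0.43 to 0.39). The interval of neither gene reached its value against PS19. For Sorl1 the joint value hid a split between libraries with and without Ddx3y. It was -0.57 (SE 0.16, edgeR adjusted p = 0.0259) with Ddx3y and 0.43 (SE 0.18, edgeR adjusted p = 0.212) without. The log2 fold change of Clu was 0.35 (95% interval 0.09 to 0.61, edgeR adjusted p = 0.105), and that of Apoe was 0.42 (95% interval -0.05 to 0.88, edgeR adjusted p = 0.29).

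Members also differed inside CgA-KO/PS19, between libraries with and without Ddx3y. Apoe and Clu were higher, and Sort1 and Sorl1 lower, in replicates 1 to 3 than in replicates 4 to 6 with no overlap, and Abca1 was higher without overlap too. These 2 sets of replicates did not overlap for 35.1% of all genes tested. In a model with a term for Ddx3y, 4 members differed between these replicates at an edgeR adjusted p under 0.05, beside 19.1% of all genes. Apoe was 1.77-fold higher (log2 fold change 0.83, SE 0.21, edgeR adjusted p = 0.0153) and Clu 1.45-fold higher (0.54, SE 0.09, edgeR adjusted p = 0.00143). Sort1 was 1.44-fold lower (-0.53, SE 0.09, edgeR adjusted p = 0.00165) and Sorl1 1.84-fold lower (-0.88, SE 0.16, edgeR adjusted p = 0.00214). The near-identical CgA-KO/PS19 replicates 1 and 3 counted as separate libraries here. This model was not fitted with them averaged, so these SEs may be too small.

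The effect of genotype was then compared between libraries with and without Ddx3y, by an interaction term. For CgA-KO/PS19 against PS19 it differed for 4 members, Apoe, Clu, Sort1 and Sorl1, beside 11.7% of all genes. With Ddx3y, CgA-KO/PS19 over PS19 gave a log2 fold change of 0.78 (SE 0.21) for Apoe, 0.63 (SE 0.09) for Clu, -0.70 (SE 0.09) for Sort1 and -1.25 (SE 0.16) for Sorl1. Without Ddx3y, the corresponding values were -0.43 (SE 0.21), -0.03 (SE 0.09), -0.08 (SE 0.09) and -0.29 (SE 0.16). The 2 sets thus pointed opposite ways for Apoe and the same way for Sorl1. The difference between the sets was 1.22 for Apoe (SE 0.30, edgeR adjusted p = 0.0189), 0.67 for Clu (SE 0.13, edgeR adjusted p = 0.00518), -0.61 for Sort1 (SE 0.13, edgeR adjusted p = 0.00838) and -0.95 for Sorl1 (SE 0.23, edgeR adjusted p = 0.0153). Lrp1 was -0.38 (SE 0.13) with Ddx3y and -0.41 (SE 0.13) without, a difference of 0.03 (SE 0.18, edgeR adjusted p = 0.946). The interaction was not fitted with the near-identical libraries averaged, so its SEs may be too small as well.

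**Figure D3:**
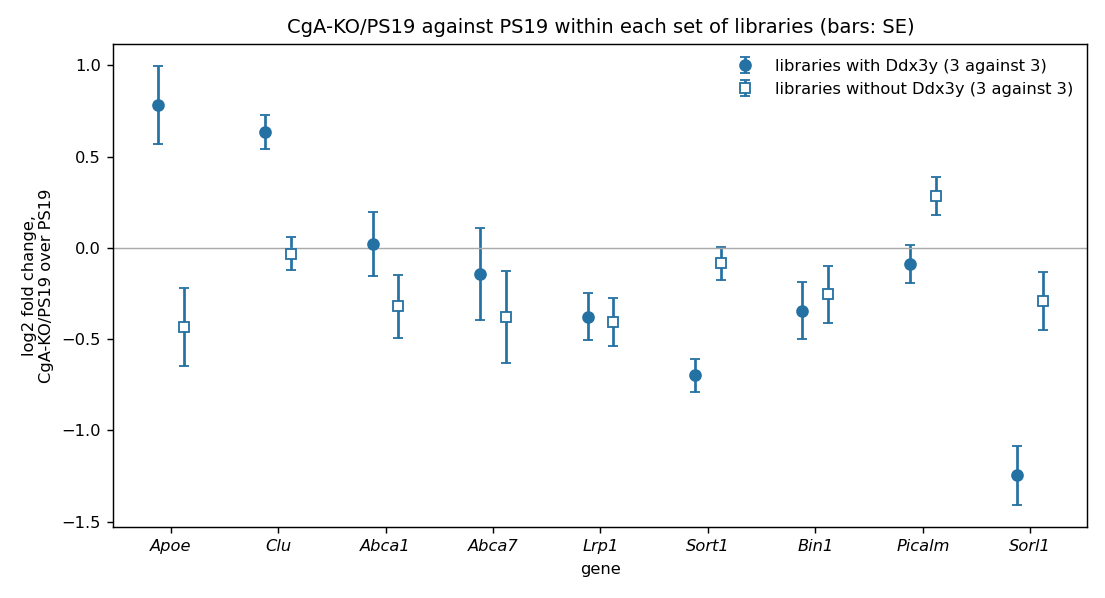
Log2 fold change of CgA-KO/PS19 over PS19 (vertical axis) for each of the 9 genes, in libraries with Ddx3y (filled circles) and without (open squares), 3 against 3 in each, with bars of 1 SE. The 2 sets are apart for Apoe, Clu, Sort1 and Sorl1 and close together for Lrp1.

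Against WT the same interaction was past the threshold for 3 members, Clu, Sort1 and Sorl1, beside 5.47% of all genes, while for WT against PS19 it was for 0 members, beside 0.0564%, with 1, Picalm, at an unadjusted p under 0.05. In that last comparison Sorl1 had a log2 fold change of -0.68 (SE 0.16) with Ddx3y and -0.72 (SE 0.18) without, and Lrp1 of -0.27 (SE 0.13) and -0.56 (SE 0.15).

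Marker levels moved with this split. Summed astrocyte markers were at 5714 to 8262 CPM in CgA-KO/PS19 replicates 1 to 3 and at 2126 to 4228 CPM in replicates 4 to 6, against 1816 to 4427 CPM in WT and 1988 to 6227 CPM in PS19. Oligodendrocyte markers summed to 2869 to 3262 CPM in the first set and 1726 to 1839 CPM in the second, and microglia markers to 305 to 343 CPM and 188 to 252 CPM. Summed neuron markers went the other way, at 7610 to 10858 CPM in replicates 1 to 3 and 12781 to 17491 CPM in replicates 4 to 6. No astrocyte, microglia, oligodendrocyte or neuron marker was at 0 in any library. The part of these markers in the levels of Apoe, Clu, Sort1 and Sorl1 was not tested beyond the covariate fits that follow. With the astrocyte list as a covariate, a setting chosen after the data were seen, Clu and Sort1 joined Lrp1 and Sorl1 as called in CgA-KO/PS19 against PS19, with log2 fold changes of 0.27 and -0.36 (edgeR adjusted p = 0.0224 and 0.0143). Calls rose over all genes too in that setting, to 3331 from 2242 without a covariate. With the neuron list as the covariate, also chosen after the data were seen, Clu was at 0.13 (edgeR adjusted p = 0.329), Sort1 at -0.24 (0.123), Apoe at -0.17 (0.496) and Sorl1 at -0.44 (0.0288). With the striatum list, Clu was at 0.13 (edgeR adjusted p = 0.434), Sort1 at -0.21 (0.186) and Apoe at -0.17 (0.585). Without the 3 CgA-KO/PS19 libraries with Ddx3y, 0 members were called against PS19 by edgeR, 2 of them with an unadjusted p under 0.05, while Lrp1 kept a log2 fold change of -0.39 and Sorl1 was at -0.34 (edgeR adjusted p = 0.143 and 0.195).

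**Figure D4:**
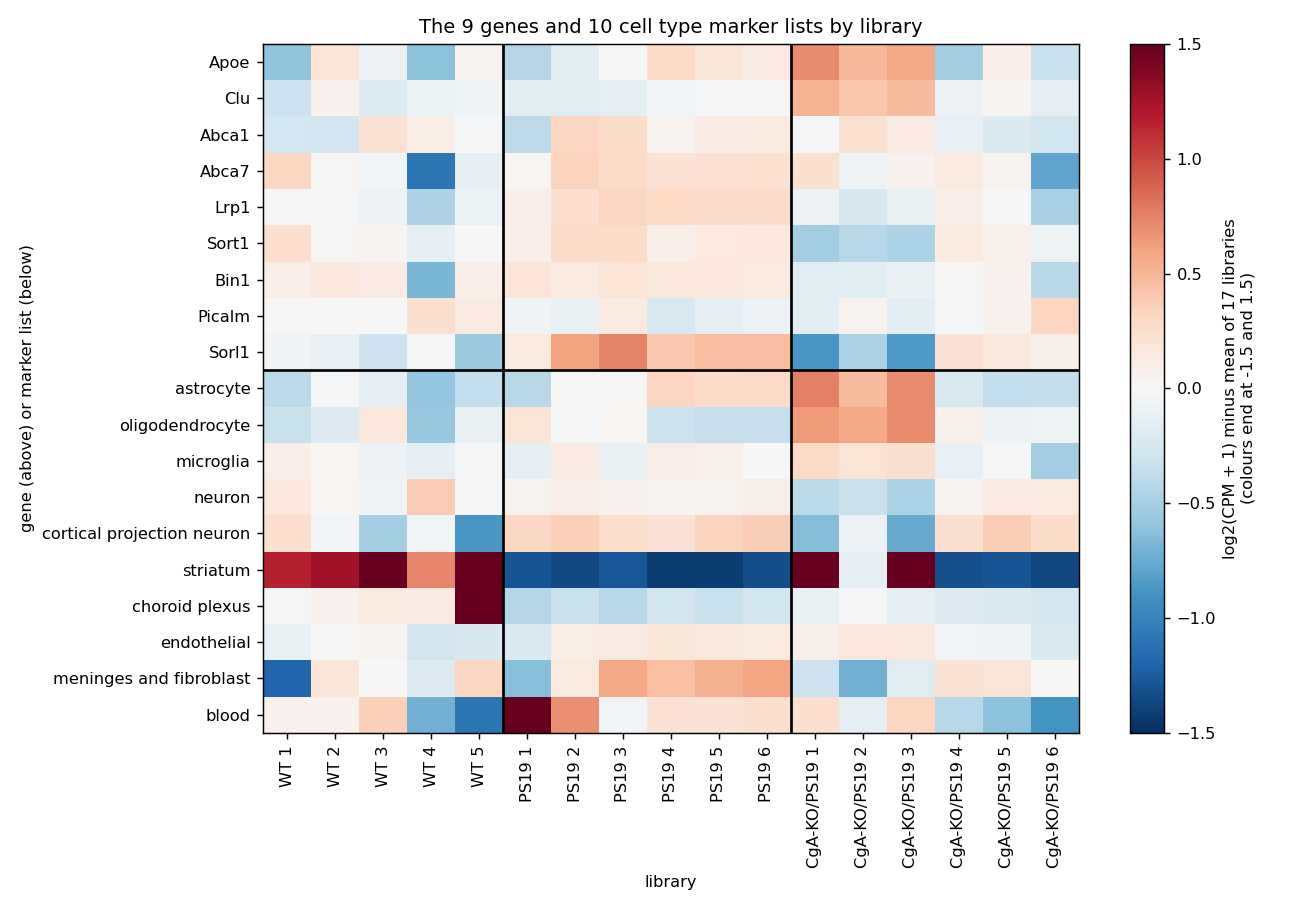
Log2(CPM + 1) of the 9 genes (above the line) and the mean over each of 10 cell type marker lists (below it), as the difference from the mean of all 17 libraries, with 1 column per library and a colour scale cut at equal distances on either side of 0. CgA-KO/PS19 replicates 1 to 3 are high for Apoe, Clu, astrocyte and oligodendrocyte markers and low for Sort1, Sorl1 and neuron markers.

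Levels were compared between genes as CPM per kilobase of annotated exon. In WT the order was Apoe, Clu, Sort1, Bin1, Sorl1, Lrp1, Picalm, Abca1 and Abca7, from 224 ± 56.9 CPM per kilobase (SD, n = 5) for Apoe to 1.96 ± 0.64 for Abca7. The library ranges overlapped between Clu (116 ± 11.4) and Sort1 (94.8 ± 9.37) and between Bin1 (38.1 ± 8.05) and Sorl1 (34.7 ± 5.04), and the other neighbours were apart. In PS19 Sorl1 stood above Bin1, at 55.7 ± 7.56 against 43.1 ± 0.75 CPM per kilobase (n = 6), without overlap. In CgA-KO/PS19 Bin1, at 35.0 ± 4.11, Sorl1, at 34.2 ± 11.4, and Lrp1, at 19.3 ± 2.58, overlapped in turn, as did Apoe, at 299 ± 98.3, and Clu, at 147 ± 30.4. With the longest annotated transcript in place of the exon union, Bin1 ranked above Sorl1 in PS19 too.

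**Figure D5:**
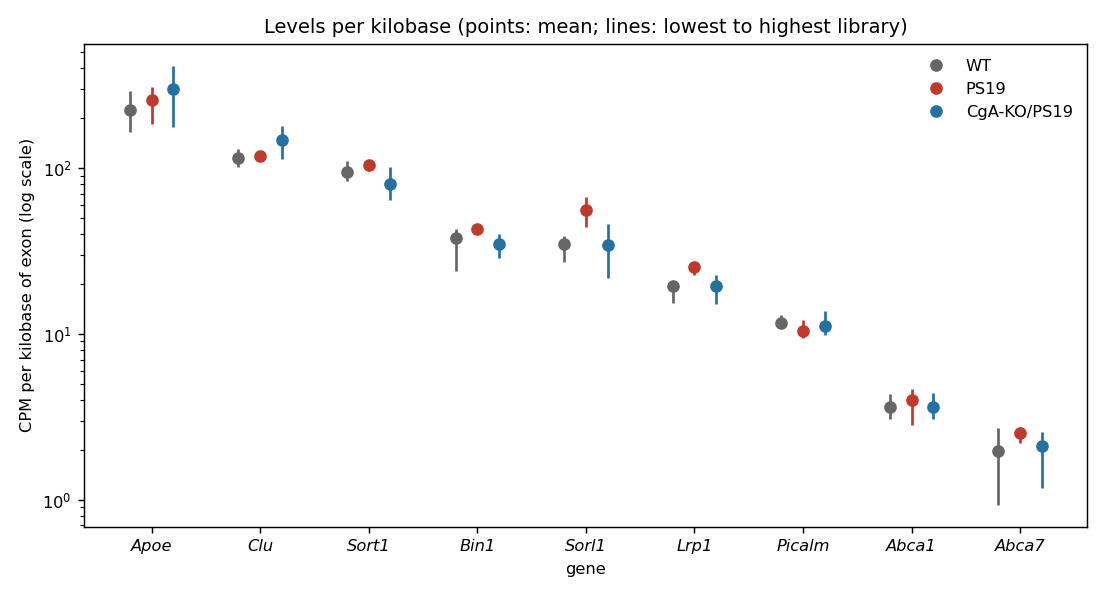
CPM per kilobase of exon (logarithmic axis) of the 9 genes in WT, PS19 and CgA-KO/PS19, with the mean as a point and the range over libraries as a line. Apoe is highest and Abca7 lowest in each genotype, and Sorl1 is above Bin1 in PS19 only, an order that does not hold with the longest transcript.

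Members also varied together across the 17 libraries, which share genotype differences, the marker differences above and depth, so the correlations are descriptions only. On log2(CPM + 1), Pearson's r was 0.85 between Bin1 and Lrp1, 0.85 between Abca7 and Bin1, 0.84 between Sort1 and Sorl1 and 0.83 between Apoe and Clu. Over the 14 libraries left without the CgA-KO/PS19 libraries with Ddx3y, the same pairs gave 0.835, 0.936, 0.615 and 0.66. The most negative value of the 36 pairs was -0.89, between Clu and Sort1, and without the 3 CgA-KO/PS19 libraries with Ddx3y it was -0.32. The genes most like Sorl1 over 17 libraries were Hapln4, which belongs to the perineuronal matrix (r = 0.98), the muscarinic receptor gene Chrm3 (0.98) and Herc3 (0.97). Those most like Lrp1 were Mroh1 (0.96), Lbh (0.96) and the axonal gene Cntnap1 (0.96), and these held at 0.96, 0.97 and 0.96 over 14 libraries. For Sort1 they were the adaptor subunit gene Ap3m2 (0.98), Acvr1b (0.97) and Glg1 (0.97), and for Bin1 Tmem259 (0.98), Asb6 (0.98) and Zc3h3 (0.97). Abca1 was most like Slco1a4 (0.89), a transporter of brain endothelium, Cyp4v3 (0.85) and Apcdd1 (0.83). Apoe was most like Hadha (0.92), which encodes a subunit of the mitochondrial fatty acid oxidation enzyme, Plcb3 (0.91) and Gm54878 (0.90). For Clu, the 3 most like genes were Gng5 (0.95), Appl2 (0.95) and Fads2 (0.95), which fell to 0.78, 0.60 and 0.60 over the 14 libraries. Abca7 was most like Dvl1 (0.96), Ncaph2 (0.96) and Zxda (0.96), and Picalm was most like Pibf1 (0.95), Abce1 (0.95) and Cul4b (0.94).

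Of the wider pathways, 3 lists of genes other than the members were counted in the same fit. Of 23 tested genes of lipoprotein and cholesterol handling, edgeR called 1 higher and none lower for WT over PS19, and 1 lower and none higher for CgA-KO/PS19 over PS19. These are 4.35% of the list in each comparison, against 5.9% and 9.72% of all genes. The list's median log2 fold change was -0.15 and -0.06 in the 2 comparisons, beside -0.01 and 0.03 for all genes. Lrpap1, a chaperone of Lrp1 and its relatives, ran from 158 to 185 CPM over WT libraries, 132 to 140 CPM over PS19 and 108 to 132 CPM over CgA-KO/PS19. It was higher in WT than in PS19 (log2 fold change 0.32, SE 0.07, edgeR adjusted p = 0.0162), opposite in direction to Lrp1 itself. Abcg4, a cholesterol transporter of neurons and astrocytes, was at 39.6 ± 10.4 CPM in CgA-KO/PS19 and 58.1 ± 2.43 CPM in PS19 (n = 6 each, log2 fold change -0.55, SE 0.16, edgeR adjusted p = 0.0344).

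Of 24 genes of VPS10 receptors, retromer and endosomal sorting, edgeR called 1 lower and none higher for WT over PS19. In CgA-KO/PS19 against PS19, 0 passed in either direction and 5 had an unadjusted p under 0.05. The called shares were 4.17% and 0%, against 5.9% and 9.72% of all genes. Small unadjusted p values were common in the second comparison, where the edgeR p of Bin1, 0.0236, ranked 4634 of 23062 genes. The list's median log2 fold change was -0.02 in the first and -0.05 in the second. Snx5, a sorting nexin, was at 51.3 to 57.2 CPM in WT and 66.2 to 71.6 CPM in PS19, without overlap (log2 fold change -0.31, SE 0.07, edgeR adjusted p = 0.012). Gga2, an adaptor of sortilin, had the next smallest p and did not pass, at 19.4 ± 2.96 CPM in CgA-KO/PS19 and 26.4 ± 4.85 CPM in PS19 (edgeR adjusted p = 0.0592).

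Of 30 genes of clathrin-mediated endocytosis, edgeR called 2 higher and 1 lower for WT over PS19, and 1 higher and 4 lower for CgA-KO/PS19 over PS19. The called share was 10.0% in the first and 16.7% in the second, against 5.9% and 9.72% of all genes, and 13 of 30 had an unadjusted p under 0.05 in the second. The list's median log2 fold change was 0.04 and -0.07. Sh3gl3, an endophilin, was lowest in PS19, at 18.2 to 27.8 CPM against 30.9 to 35.2 CPM in WT and 25.6 to 38.9 CPM in CgA-KO/PS19. It was higher in WT (log2 fold change 0.66, SE 0.13, edgeR adjusted p = 0.00557) and in CgA-KO/PS19 (0.67, SE 0.13, edgeR adjusted p = 0.0057) than in PS19. Synj1, the phosphatase that helps to uncoat vesicles, was lower in CgA-KO/PS19, at 320 ± 126 CPM against 559 ± 55.1 CPM in PS19 (log2 fold change -0.80, SE 0.22, edgeR adjusted p = 0.0292). Hip1r, which links clathrin coats to actin, was also lower there (log2 fold change -0.35, SE 0.09, edgeR adjusted p = 0.0241). Eps15, a coat scaffold, was lower in WT than in PS19 (-0.36, SE 0.09, edgeR adjusted p = 0.0275), and Epn2, an epsin, was higher in WT (0.34, SE 0.09, edgeR adjusted p = 0.0288).

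The marker lists were compared between genotypes in the same fit. Of 14 striatum markers, 13 were higher for WT over PS19 and 9 for CgA-KO/PS19 over PS19, with none lower. For choroid plexus, 8 of 12 markers were higher for WT over PS19 and 1 of 12 for CgA-KO/PS19 over PS19, with WT replicate 5 at a sum of 1472 CPM. In the same order, astrocyte markers gave 2 of 12 lower and 2 of 12 higher, oligodendrocyte markers 0 and 3 of 12 higher, and neuron markers 1 of 12 higher and 2 of 12 lower. Cortical projection neuron markers gave 2 of 10 lower in each comparison. Meninges and fibroblast markers gave 1 of 10 higher and 1 of 10 lower, and no microglia (12), endothelial (10) or blood (5) marker passed against PS19. The part of these differences in the levels of Lrp1 and Sorl1 was not tested beyond the covariate fits given.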

How the data were processed

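Polyadenylated RNA from prefrontal cortex was sequenced as read pairs after library preparation with the KAPA mRNA HyperPrep kit. Per the labels and Methods, the authors trimmed reads with Trimmomatic 0.39, mapped them to mm10 with STAR 2.7.10b, quantified them with StringTie 1.3.6 and used prepDE.py3 to turn its coverage into the whole-number gene counts that were deposited; the annotation release and strand setting are not given in the sources used here. In 13 of 17 libraries 3 was the most frequent count from 1 to 4, and in all 17 libraries 6 was the most frequent from 5 to 8, so a low count is not a number of fragments. Here, counts were scaled by TMM, filtered with filterByExpr and tested by edgeR 4.0.16 quasi-likelihood across all 17 libraries (R 4.3.3), with Benjamini-Hochberg adjustment over 23062 genes and a threshold of 0.05; this test was checked on simulated counts. Alternatives used DESeq2 1.42.0 (the study's tool), limma 3.58.1 voom with quality weights, other scaling, no filter, fewer libraries, a replicate block and covariates. Likeness is Pearson's r of log2(CPM + 1) among genes with a mean of at least 5 CPM, the 3 highest per member being named. From each of the 3 pathway lists, up to 5 genes with the smallest p among those called against PS19 are named, or the first 2 where fewer than 2 were called. Samples were grouped by their labels. The members, the 3 pathway lists and the 10 marker lists were chosen with earlier results of these data known.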

Additional observations from a re-analysis of the deposited data

Results flagged for a closer look

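In 27 groups, the libraries of 1 genotype for 1 member, 3 libraries lay far from the rest, measured by the gap to the nearest library over the whole range, where chance gives about 1 in 20. Lrp1 was at 273 CPM in WT replicate 4, the nearest other library being at 351 CPM (gap 0.788 of the range), and Bin1 was at 98.0 CPM in the same library, the nearest being at 169 CPM (0.894). WT replicate 4 had the fewest counts of all libraries. Lrp1 was at 402 CPM in PS19 replicate 1, the nearest being at 446 CPM (0.636).

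The effect of genotype differed between libraries with and without Ddx3y, by the interaction term in edgeR, for 4 members in CgA-KO/PS19 against PS19. The log2 fold change with Ddx3y minus that without was 1.22 for Apoe, 0.67 for Clu, -0.61 for Sort1 and -0.95 for Sorl1. In CgA-KO/PS19 against WT it was 0.60 for Clu, -0.70 for Sort1 and -0.99 for Sorl1, with edgeR adjusted p of 0.0211, 0.0124 and 0.0289. CgA-KO/PS19 replicates 1 to 3 enter every one of these values. Apoe did not pass against WT (0.71, SE 0.32, edgeR adjusted p = 0.21).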

How the results depend on the processing

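With all libraries 2, 2 and 0 members were called in WT against PS19, CgA-KO/PS19 against PS19 and CgA-KO/PS19 against WT, among 1361, 2242 and 1489 genes. Called members numbered 0 in WT against PS19 without a filter, with the replicate block, with near-identical libraries averaged and in libraries with Ddx3y alone, and 1 in libraries without Ddx3y alone. In CgA-KO/PS19 against PS19 they numbered 3 by DESeq2 (Lrp1, Sorl1 and Sort1) and 5 by limma voom (the same with Clu and Bin1). They numbered 4 with the astrocyte list as a covariate and 6 in libraries with Ddx3y alone. They numbered 0 with the block, with averaging, without the 3 CgA-KO/PS19 libraries with Ddx3y and in libraries without Ddx3y alone. In CgA-KO/PS19 against WT they numbered 1 by limma voom, 4 with the striatum list as a covariate and 5 in libraries with Ddx3y alone.

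Genes called in WT against PS19 numbered 2408 by DESeq2, 2275 with only the 2 genotypes, 3967 by limma voom, 660 with the block, 3921, 2525 and 2726 with the striatum, astrocyte and neuron list as a covariate, 430 with averaging and 128 in libraries with Ddx3y alone. In CgA-KO/PS19 against PS19 they numbered 3970 by DESeq2, 5229 by limma voom and 654 with the block. With the striatum, astrocyte and neuron list as a covariate they numbered 1463, 3331 and 2333. They numbered 156 with averaging, 346 without the 3 libraries, and 6713 and 190 in libraries with and without Ddx3y alone. In CgA-KO/PS19 against WT they numbered 2621 by DESeq2, 266 with only the 2 genotypes, 2458 by limma voom, 614 with the block, 5012 with the striatum covariate, 577 with averaging, 982 without the 3 libraries, and 4474 and 718 in libraries with and without Ddx3y alone. Settings that use the Ddx3y split or the astrocyte or neuron list were added after the data were seen. The cause of these changes was not tested.

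Leaving out 1 library at a time gave 0 to 2, 0 to 4 and 0 to 1 called members, and 632 to 1471, 1019 to 3822 and 627 to 2099 called genes. Of 702 log2 fold changes of members under the alternatives, 1 changed sign for a member called in the main edgeR fit. That was Sorl1 in WT against PS19, at 0.19 with the striatum covariate, where it was no longer called (edgeR adjusted p = 0.448). That covariate is confounded with genotype in this comparison. Another 63 changed sign for members not called in the main fit. A call was lost without a change of sign in 42 and gained in 29. Deviations of same-numbered libraries correlated at -0.09 to 0.41, and 5 of 17 libraries correlated best with one of their own number. These values cannot tell whether the replicate numbers pair the samples, and the labels do not say. The order of levels held for 7 of 9 members with the longest transcript. Depth limits Abca7 most, at 55 counts in WT replicate 4.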
